A study of Ovis aries with 32 samples.

Results

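Visceral and subcutaneous fat of sheep exposed to excess testosterone before birth were compared within each animal. The comparison used 8 of the 32 libraries of the series, the visceral and the subcutaneous library of the 4 testosterone sheep, numbered 48, 185, 233 and 255. They were chosen by their labelled depot and treatment alone. Visceral fat was mesenteric fat next to the ventral sac of the rumen, and subcutaneous fat came from below the skin over the breastbone. Between gestation days 30 and 90 their dams received intramuscular testosterone propionate, 100 mg (1.2 mg/kg) per injection, with corn oil (2 ml) as the vehicle and 2 injections weekly. The 4 control sheep, numbered 98, 131, 132 and 201, gave the same depots and serve below as the reference for an unexposed depot difference. Both groups were adult females on a maintenance diet, had their ovaries removed and carried a steroid replacement of a 1 cm estradiol implant, 2 progesterone implants for 14 days and then 4 estradiol implants of 30 mm for 18 h. Estradiol and progesterone were therefore supplied by implants in every animal, which did not set other hormones. A dam gave no more than 1 daughter to a treatment group. The prenatally androgenized sheep is a model of polycystic ovary syndrome, and the comparison asks how far the 2 depots of such an animal differ.

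Fat depots of the trunk arise from different embryonic sources. Visceral fat develops from mesoderm next to the body cavity, whose lining cells make the transcription factor WT1, while subcutaneous fat forms in the body wall. Adult fat cells and their precursors keep a record of body position in the homeobox (HOX, IRX) and T-box transcription factors that they express. Depots also differ in blood and nerve supply, in resident immune cells and in how strongly fat cells answer hormones and catecholamines.

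Levels are given as CPM, the usual scaling of a gene's count to a fixed library total, with TMM factors that correct for library composition. Each read is a tag from the 3′ end of a transcript, so CPM carry no length correction. Differences are log2 fold changes, visceral minus subcutaneous, from edgeR's quasi-likelihood test with the sheep as a block. A gene passed the test at a Benjamini-Hochberg adjusted p under 0.05. Total counts ran from 2609183 to 8207718 in the visceral and from 784135 to 6538042 in the subcutaneous libraries, so a gene with no read may still lie at up to 0.133 CPM over the visceral and 0.182 CPM over the subcutaneous group (3 counts over the 4 libraries, counting error only). Tissue pieces were sequenced whole, so fewer cells of a type and less RNA per cell cannot be told apart.

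A pair of libraries stood apart from the rest. The visceral library of sheep 255 and the subcutaneous library of sheep 48 held 6.15% and 6.95% of their reads in a list of nuclear and intron-rich transcripts, against 0.802% to 1.62% in the other 6. ARGLU1, a splicing-associated transcript that stays largely in the nucleus, reached 19698 CPM in the visceral library of sheep 255 against 596 to 1788 in the other visceral libraries. It reached 26343 CPM in the subcutaneous library of sheep 48 against 1455 to 2340 in the other subcutaneous ones. The subcutaneous library of sheep 48 was also the shallowest, with reads for 13958 genes against 16534 to 17021 in the others of its group. Leaving both out keeps 3 libraries of each depot but only 2 complete pairs, sheep 185 and 233. These are called the low-quality libraries below, and results are given with and without them.

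The labelled tissue was checked against markers. Adipocyte markers (7 of 7 in the table) summed to 10290 to 31200 CPM in visceral and 15610 to 46690 CPM in subcutaneous libraries, with both lowest values in the low-quality libraries. Markers of the mesothelium, the lining of the body cavity, summed to 54.8 to 218 CPM in visceral and 0.779 to 5.39 CPM in subcutaneous libraries. Nearly all of that sum was WT1. The more specific mesothelial markers UPK3B and MSLN reached at most 2.67 and 0.296 CPM in a visceral library and were at 0 in all 4 subcutaneous ones. A wider mesothelium list went both ways, with 3 of 6 tested genes higher and 3 lower in visceral fat. Of these, 1 passed as higher, WT1, and 1 as lower, PRG4, against 0.176% of all genes in each direction. Epithelial markers reached at most 1.35 CPM, skeletal muscle markers at most 6.74 CPM and B cell markers at most 2.22 CPM in a library. Lymph node stroma markers, mostly CCL21, summed to 93.2 CPM in the subcutaneous and 57.9 CPM in the visceral library of sheep 233, and their part in any result was not tested.

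On a scale built from genes that differed between the depots of control sheep by at least 1 on the log2 scale, the visceral testosterone libraries lay at 0.651, 0.981, 0.960 and -0.266 in sheep 48, 185, 233 and 255. The subcutaneous ones lay at -1.93, -1.16, -0.755 and -1.11 in the same order. Every sheep had its visceral library above its subcutaneous one. Control libraries lay between 1.17 and 1.34 in visceral and between -1.68 and -1.14 in subcutaneous fat, but the scale was chosen on them, so their distance is a description and was not tested.

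Of 12530 genes tested, 44 differed between the depots of the testosterone sheep, 0.351% of all. There were 22 higher in visceral fat (0.176%) and 22 higher in subcutaneous fat (0.176%). An unadjusted p under 0.05 was reached by 964 genes (7.69%). Each of the 44 differed in the same direction in 4 of 4 sheep. The size of the differences ran from 1.6 to 7.19 on the log2 scale among genes higher in visceral fat, and the smallest among genes higher in subcutaneous fat was -2.28. Of the 44, 33 carry a gene symbol and 11 only a locus number. The strongest differences lay in transcription factors of body position and of the visceral mesoderm, described first.

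Without the low-quality libraries, and with the sheep still as a block, 332 of 12806 genes passed (2.59%), 174 higher (1.36%) and 158 lower (1.23%) in visceral fat. All of the 44 were among them. That 2-pair fit rests on sheep 185 and 233 and has 1 residual degree of freedom. Treating the 6 remaining libraries as 3 against 3 without the block gave 49 genes (0.383%), 25 higher (0.195%) and 24 lower (0.187%), which held 22 of the 44. With 30 libraries of all depots and both treatments in 1 fit, 312 of 14413 genes passed (2.16%), 195 higher (1.35%) and 117 lower (0.812%), among them 32 of the 44. A set of 17 genes passed in all of these fits, and among them were IRX1, IRX2, EYA1, BDNF, SHOX2, HOXD8, WT1, SLIT2, GPR1, GPAT3, MEIS1 and TMEM132C. The spread between pairs, as edgeR's common coefficient of variation, was 0.337 with all 8 libraries, against 0.174 in the 4 control pairs. Without the low-quality libraries it was 0.224 in the 2-pair fit. As 3 against 3 it was 0.309, which without the block includes differences between sheep. With both libraries of 1 sheep left out, 5 genes passed without sheep 233, 25 without 185, 77 without 48 and 158 without 255. The cause was not tested.

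**Figure D1:**
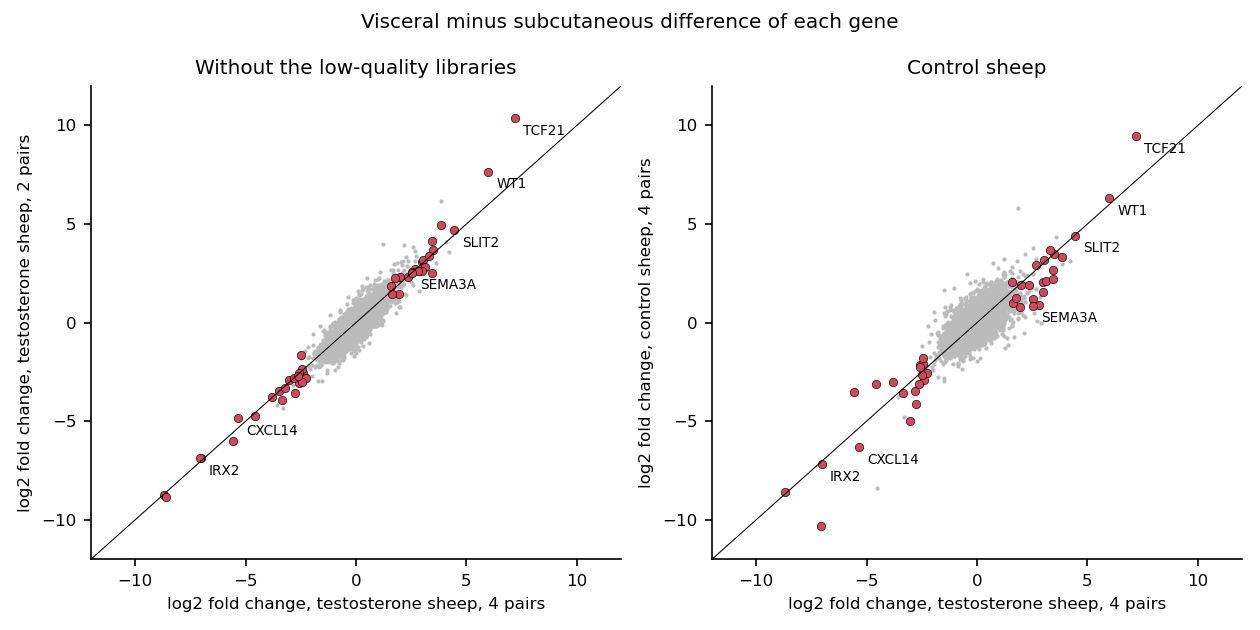
Each point is 1 gene; the x axis gives the log2 fold change (visceral minus subcutaneous) in the 4 testosterone pairs, and the y axis the same without the low-quality libraries (left) or in the 4 control pairs (right). Red points are the 44 genes that passed in the 4 testosterone pairs, which lie on the same side of 0 on both axes wherever they were tested (44 of 44 on the left, 41 of 41 on the right).

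Genes of body position were the largest group among those higher in subcutaneous fat. Of 40 homeobox and T-box genes tested, 8 were higher in subcutaneous fat, against 0.176% of all genes, and 1, MEIS1, was higher in visceral fat. The median log2 fold change of the 40 was -0.62, beside -0.00097 over all genes tested. In 16 of the 40, all 4 subcutaneous libraries lay above all 4 visceral ones, against 1.96% of all genes. With the low-quality libraries left out, the 2-pair fit had 16 of the list higher in subcutaneous and 4 in visceral fat. Over all genes these shares were 1.23% and 1.36%. In the 3 against 3 fit the counts were 10 and 3, against 0.187% and 0.195% of all genes.

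IRX1, IRX2 and IRX3 are Iroquois homeobox factors, which pattern the embryo along its axes, and all of them were higher in subcutaneous fat. IRX2 was at 35.0, 12.5, 44.9 and 18.5 CPM in subcutaneous fat of sheep 48, 185, 233 and 255, and at 0.200, 0.248, 0.148 and 0 CPM in visceral fat (log2 fold change -7.04, SE 0.53, adjusted p = 0.000212). IRX1 was at 37.7, 11.7, 26.5 and 9.05 CPM against 0.200, 0.248, 0 and 0 CPM, with 298 reads against 3 and a ratio of 136 (95% counting interval 46.1 to 663). Its adjusted p was 0.000526. IRX3, an obesity-associated regulator in people, kept a visceral level of 10.9 to 25.9 CPM and reached 46.5 to 111 CPM in subcutaneous fat (log2 fold change -2.28, SE 0.33, adjusted p = 0.0140). IRX5, of the same family, had a log2 fold change of -3.60 and did not pass (adjusted p = 0.0797), although its libraries did not overlap between depots.

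HOXC8, HOXC9 and HOXD8 belong to the middle part of the HOX clusters, which marks trunk position. HOXC9 was at 179, 72.2, 70.2 and 57.2 CPM in subcutaneous fat of sheep 48, 185, 233 and 255 and at 13.4, 6.19, 3.56 and 16.1 CPM in visceral fat (log2 fold change -3.38, SE 0.41, adjusted p = 0.00550). HOXC8 was at 226, 83.4, 59.0 and 51.2 CPM against 18.0, 15.6, 8.89 and 17.8 CPM, with a log2 fold change of -2.60 (SE 0.36, adjusted p = 0.00977). In both genes the low-quality subcutaneous library of sheep 48 held the highest value, and the groups did not overlap without it either. Both passed in the 2-pair fit. Neither passed in both the 3 against 3 fit and the fit over 30 libraries. HOXD8 was at 25.6 to 60.5 CPM in subcutaneous and 4.01 to 13.04 CPM in visceral fat (log2 fold change -2.46, SE 0.32, adjusted p = 0.00770). HOXA9, also a trunk gene, was at 116, 35.6, 20.9 and 33.5 CPM against 0.401, 0.248, 2.07 and 8.69 CPM. It did not pass (log2 fold change -4.52, SE 0.92, adjusted p = 0.11), and its highest visceral value was in the low-quality library of sheep 255. The HOX clusters, and the BDNF and WT1 loci, hold antisense or overlapping transcripts, and no source used here gives the strand setting of the counting. Reads of such neighbours cannot be told apart.

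SHOX2, a homeobox factor of limb and body-wall development, showed little spread within either depot. It was at 84.9, 80.0, 62.6 and 57.9 CPM in subcutaneous and 14.6, 10.4, 14.1 and 16.1 CPM in visceral fat (log2 fold change -2.39, SE 0.29, adjusted p = 0.00550). TBX15, a T-box factor known from subcutaneous fat, was at 24.3, 36.4, 23.9 and 35.1 CPM against 4.81, 0.495, 2.67 and 7.39 CPM. Its groups did not overlap, yet its adjusted p was 0.0584 over the 4 pairs. Without the low-quality libraries it was 0.000598 in the 2-pair fit and 0.0468 as 3 against 3.

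EYA1, a co-activator of homeobox factors in organ and muscle development, was at 5.39, 18.4, 7.26 and 11.9 CPM in subcutaneous and 0.401, 0.371, 0 and 0 CPM in visceral fat (log2 fold change -5.57, SE 0.68, adjusted p = 0.00550). BDNF, the brain-derived neurotrophic factor, was at 31.0, 27.0, 21.2 and 15.6 CPM against 1.40, 1.2, 0.593 and 0.869 CPM. Every subcutaneous library thus held over 10 times the BDNF of any visceral one, and the log2 fold change was -4.57 (SE 0.38, adjusted p = 0.000346). BMP5, a bone morphogenetic protein, was the only member called of 29 genes of the TGF-beta, BMP and activin pathway, against 0.351% of all genes. It was at 49.9 to 102 CPM in subcutaneous and 4.83 to 15.7 CPM in visceral fat (log2 fold change -2.57, SE 0.32, adjusted p = 0.00635). CXCL14, a chemokine of fat-cell precursors, was low in both depots, at 2.54 to 10.4 CPM in subcutaneous fat and at most 0.371 CPM in visceral fat, with 98 reads against 4 (adjusted p = 0.00865).

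PRG4, which encodes the lubricating proteoglycan lubricin, was higher in subcutaneous fat in each sheep, but the groups overlapped. It was at 13.5, 62.3, 121 and 112 CPM in subcutaneous and 2.00, 8.67, 13.6 and 50.9 CPM in visceral fat of sheep 48, 185, 233 and 255 (log2 fold change -2.44, SE 0.38, adjusted p = 0.0205). The subcutaneous value of sheep 48 and the visceral value of sheep 255, both from low-quality libraries, made the overlap. Other genes with a symbol that were higher in subcutaneous fat overlapped between depots as well. These included LGI1, a secreted neuronal protein (-2.76), PTGFR, the prostaglandin F receptor (-3.51), FRMPD4 (-3.22) and CCN3_1 (-2.51), with adjusted p from 0.0203 to 0.0463. The name CCN3_1 marks a further copy of a symbol in the table, so its reads may belong in part to another copy. These 4, and PLCXD3 and TENM2 below, were added to the named genes after their values were seen.

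Among the locus numbers, LOC114110341 had no read in the visceral libraries of any testosterone or control sheep and stood at 12.1, 11.2, 8.02 and 5.79 CPM in subcutaneous fat of sheep 48, 185, 233 and 255. Its pooled level in subcutaneous fat was 62.5 times the visceral floor of 3 counts over the group (adjusted p = 0.00865). The 95% counting interval of the ratio between depots started at 50.1. LOC101122940 was higher in visceral fat, at 122, 149, 180 and 91.7 CPM against 27.0, 4.68, 5.75 and 10.3 CPM (log2 fold change 3.83, SE 0.51, adjusted p = 0.0140). Of the 11 locus numbers, RefSeq lists 4 as lncRNA and 4 as protein coding genes, while 3 had no entry in the table used.

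Visceral fat was marked by 2 regulators of the visceral mesoderm. Of 10 such factors tested, 2 were higher in visceral fat, WT1 and TCF21, against 0.176% of all genes. Of the 10, 8 had a log2 fold change above 0, against 49.9% of all genes, and 2, TBX18 and OSR1, below 0. The list median was 0.45. By pair it was -0.17, 0.19, 0.76 and 1.01 in sheep 48, 185, 233 and 255, highest in the sheep with the low-quality visceral library. WT1, the Wilms tumour transcription factor, was at 62.7, 97.3, 207 and 52.2 CPM in visceral fat of sheep 48, 185, 233 and 255 and at 5.39, 0.779, 0.756 and 1.99 CPM in subcutaneous fat. Its log2 fold change was 5.97 (SE 0.69, adjusted p = 0.00902), and the lowest visceral and highest subcutaneous values were those of the low-quality libraries. TCF21, a factor of visceral organ mesoderm and of white fat-cell precursors, was at 4.81, 9.04, 38.8 and 26.1 CPM in visceral fat. In subcutaneous fat it had 2 reads in the library of sheep 48 (2.70 CPM) and none in the other 3, against 419 visceral reads, a ratio of 153 (95% counting interval 42.1 to 1270). The fitted log2 fold change was 7.19 with an SE of 1.16 (adjusted p = 0.0476), and without the low-quality libraries the adjusted p was 2.73e-06 in the 2-pair fit and 0.211 as 3 against 3. The other 8 factors, among them GATA6, FOXF1, TBX18 and NR2F1, did not pass.

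MEIS1, a homeobox partner of HOX proteins, was higher in visceral fat, with narrow groups at 37.7, 50.3, 42.2 and 46.1 CPM against 12.1, 15.9, 17.6 and 11.6 CPM (log2 fold change 1.62, SE 0.28, adjusted p = 0.0357). BARX1, a homeobox factor of the stomach mesenchyme, was close to the threshold. It was at 4.81, 4.46, 3.11 and 3.48 CPM in visceral fat and at most 0.303 CPM in subcutaneous fat, with an adjusted p of 0.0504.

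**Figure D2:**
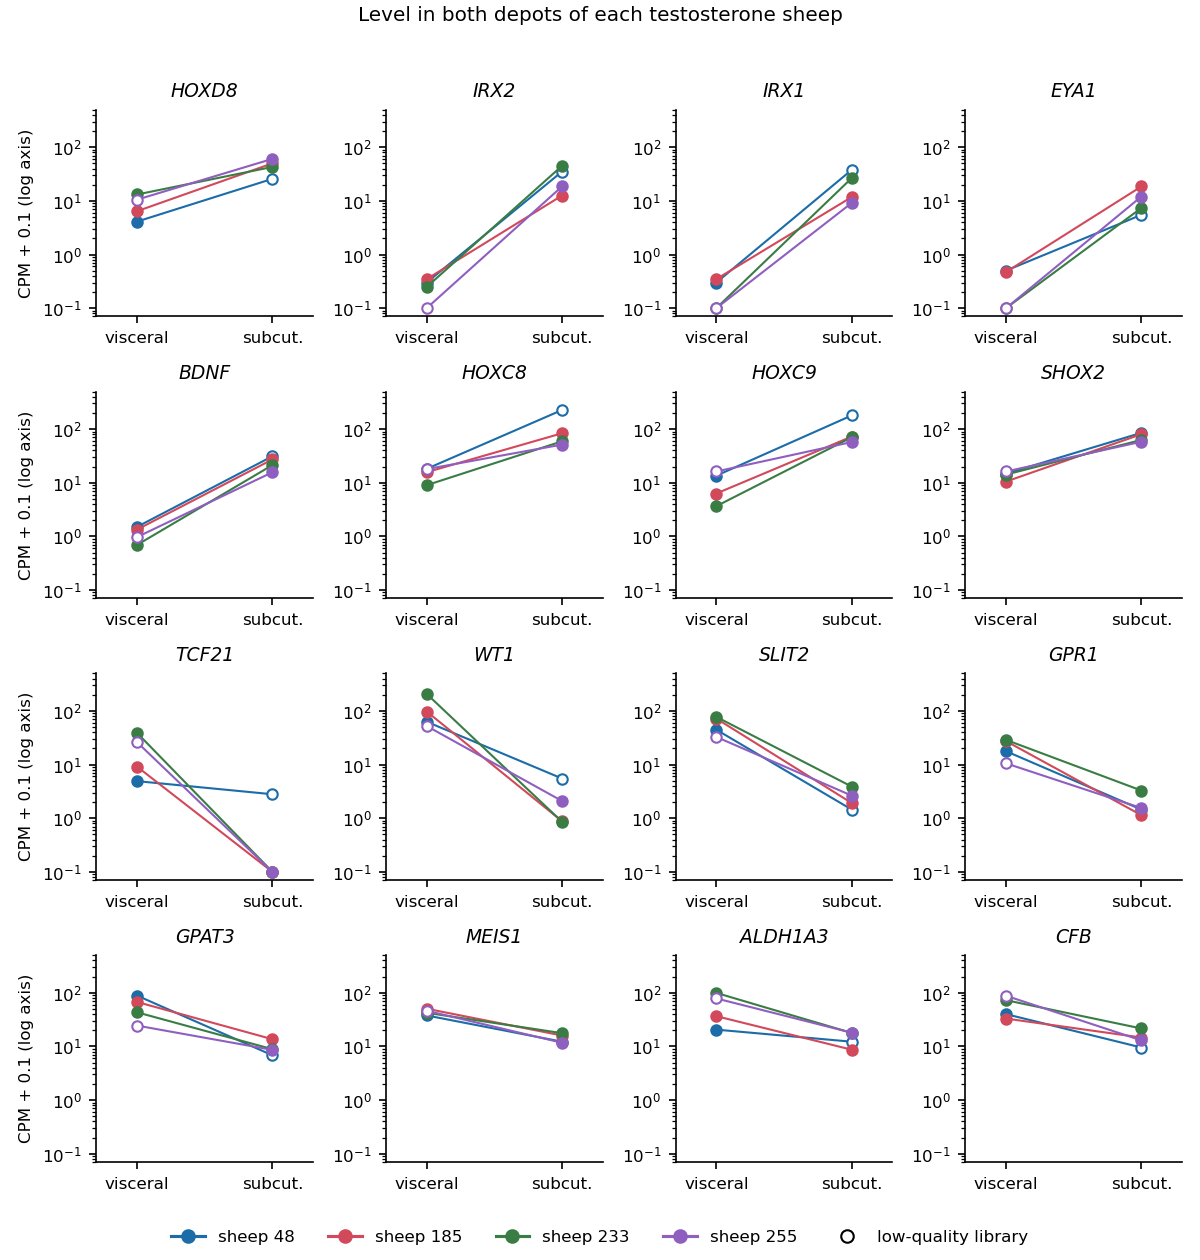
Level of 16 genes in the visceral and subcutaneous library of each testosterone sheep, as CPM + 0.1 on a log axis; lines join the 2 depots of 1 sheep and open points are the low-quality libraries. The first 8 genes run upward and the other 8 downward in every sheep; the flattest TCF21 line is that of sheep 48, whose subcutaneous library is one of the low-quality ones.

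A pair of axon guidance cues, SLIT2 and SEMA3A, passed of 28 tested, both higher in visceral fat, against 0.176% of all genes. The list median was 0.09. SLIT2, a secreted guidance protein also known as a fat-derived hormone precursor, was at 44.5, 71.8, 77.3 and 32.6 CPM in visceral fat of sheep 48, 185, 233 and 255 and at 1.35, 1.82, 3.78 and 2.54 CPM in subcutaneous fat (log2 fold change 4.45, SE 0.37, adjusted p = 0.000346). SEMA3A, a repellent of nerve fibres, was at 6.61, 7.68, 26.7 and 22.6 CPM against 4.04, 1.56, 4.09 and 2.17 CPM (log2 fold change 2.53, SE 0.45, adjusted p = 0.0463). The SEMA3A groups did not overlap, but in sheep 48 the 2 depots were close. SLIT3 and EPHB2 also had groups that did not overlap and did not pass, with log2 fold changes of 1.16 and 1.91. In all, 4 of the 28 were higher in visceral fat without overlap, against 2.88% of all genes.

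Genes of lipid and hormone signalling that passed were few. GPAT3, an enzyme that starts glycerolipid synthesis, was at 88.4, 67.2, 43.1 and 24.3 CPM in visceral and 6.74, 13.5, 8.78 and 8.51 CPM in subcutaneous fat (log2 fold change 2.33, SE 0.34, adjusted p = 0.0140). Visceral GPAT3 was lowest in the low-quality library of sheep 255 and still above every subcutaneous value. GPR1, a receptor for the adipokine chemerin, was at 17.6, 27.2, 28.7 and 10.4 CPM against 1.35, 1.04, 3.18 and 1.45 CPM (log2 fold change 3.50, SE 0.42, adjusted p = 0.00550). PTGIR, the prostacyclin receptor, was at 47.0 to 99.4 CPM against 12.7 to 38.0 CPM (log2 fold change 1.78, SE 0.31, adjusted p = 0.0386).

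The beta-adrenergic receptors, through which catecholamines start lipolysis, missed the threshold with groups that did not overlap. ADRB3 was at 60.7, 65.0, 32.7 and 6.52 CPM in visceral fat of sheep 48, 185, 233 and 255 and at 1.35, 4.16, 1.21 and 3.26 CPM in subcutaneous fat, with a log2 fold change of 3.57 (SE 0.62, adjusted p = 0.0584). The low visceral value of sheep 255 was in its low-quality library, and without both of these libraries the adjusted p was 9.64e-07 in the 2-pair fit and 0.00196 as 3 against 3. ADRB1 was at 79.4 to 191 CPM against 31.2 to 63.4 CPM (log2 fold change 1.34, SE 0.27, adjusted p = 0.0727). Of the 18 genes of lipolysis and adrenergic signalling none passed over the 4 pairs. In the 2-pair fit 2 were higher in visceral fat, ADRB3 and ADRB1, against 1.36% of all genes. There 1 was lower, PNPLA2, which encodes adipose triglyceride lipase, against 1.23% of all genes. As 3 against 3 without the same libraries ADRB3 alone passed, against 0.195% of all genes higher. The adjusted p were 0.179 for ADRB1 and 0.255 for PNPLA2.

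ALDH1A3, a retinoic acid-producing enzyme, was the member called of 17 genes of retinoid metabolism, against 0.351% of all genes. It was at 20.4, 36.5, 99.2 and 78.2 CPM in visceral and 12.1, 8.57, 17.7 and 17.9 CPM in subcutaneous fat (log2 fold change 1.97, SE 0.33, adjusted p = 0.0346). ALDH1A1, its relative, was at 637, 1088, 1132 and 439 CPM against 166, 288, 286 and 324 CPM. The groups of ALDH1A1 did not overlap, but it missed the threshold (log2 fold change 1.57, SE 0.33, adjusted p = 0.0931) and passed without the low-quality libraries (adjusted p = 0.000264 in the 2-pair fit and 0.0256 as 3 against 3).

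Complement is the blood and tissue system that tags targets for immune cells. Of 17 tested genes 16 had a log2 fold change above 0, against 49.9% of all genes, with a median of 0.75. CFB, complement factor B, was the 1 that passed, against 0.176% of all genes higher. It was at 39.9, 32.9, 72.6 and 87.8 CPM in visceral and 9.43, 14.5, 21.5 and 12.8 CPM in subcutaneous fat (log2 fold change 1.92, SE 0.33, adjusted p = 0.0346). C1QC, C1S and SERPING1 joined it as genes whose libraries did not overlap, so 4 of 17 did not, against 2.88% of all genes. C1S was at 211 to 467 CPM against 78.2 to 190 CPM and had an adjusted p of 0.127. The median of the list was above 0 in every sheep, at 1.01, 0.75, 0.98 and 0.36 in sheep 48, 185, 233 and 255. Macrophages are a source of C1Q, and their 4 markers in the table summed to 109 to 372 CPM in visceral and 108 to 189 CPM in subcutaneous fat, a part in the result that was not tested.

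Few extracellular matrix genes passed over the 4 pairs. None of 22 collagens (median 0.09), 18 proteoglycans (0.39) or 24 matrix proteases and inhibitors (-0.04) did. FBLN5, an elastic fibre protein, was the 1 that passed of 27 matrix glycoproteins, against 0.176% of all genes higher. It was at 67.1, 61.7, 122 and 45.6 CPM in visceral and 17.5, 16.1, 35.9 and 25.5 CPM in subcutaneous fat (log2 fold change 1.6, SE 0.29, adjusted p = 0.0476). In the 2-pair fit 9 of the 27 were higher in visceral fat, against 1.36% of all genes, and none lower, with FN1, LTBP1, EFEMP1 and ELN among them. As 3 against 3 without the same libraries 0 of the 27 passed. The list median was 0.22 over the 4 pairs, 0.68 in the 2-pair fit and 0.75 as 3 against 3, and it was -0.41 in sheep 255. FN1, fibronectin, was at 137, 365, 1461 and 129 CPM in visceral fat of sheep 48, 185, 233 and 255 and at 128, 88.3, 165 and 248 CPM in subcutaneous fat. It was high in visceral fat of sheep 233 and lower in visceral than subcutaneous fat of sheep 255 (log2 fold change 1.09 over the 4 pairs, adjusted p = 0.803). HMCN1, the matrix protein hemicentin, was at 11.2, 17.1, 83.0 and 23.9 CPM against 4.04, 2.86, 2.12 and 2.72 CPM (log2 fold change 3.43, SE 0.56, adjusted p = 0.0346), again with sheep 233 highest.

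The remaining genes with a symbol that were higher in visceral fat have less defined roles in fat. TMEM132C, a membrane protein, was at 34.1, 47.4, 27.9 and 95.6 CPM against 12.1, 6.49, 2.42 and 6.52 CPM (log2 fold change 3.04, SE 0.41, adjusted p = 0.00865). ST6GAL2, a sialyltransferase, was at 8.42, 5.94, 25.9 and 7.39 CPM against 1.35, 0.260, 5.60 and 0.905 CPM (log2 fold change 2.81, SE 0.47, adjusted p = 0.0344), high in both depots of sheep 233. PLCXD3, a phospholipase-like protein (log2 fold change 2.98), and TENM2, a teneurin adhesion protein (3.45), passed with groups that overlapped.

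None of 19 mature adipocyte genes passed over the 4 pairs, and their median was -0.08, with medians of 0.95, -0.02, -0.73 and -0.59 in sheep 48, 185, 233 and 255. In the 2-pair fit 3 of 20 were lower in visceral fat, against 1.23% of all genes. They were the lipid droplet proteins CIDEA and PLIN4 and the lipase PNPLA2, with a list median of -0.35, and as 3 against 3 none passed. The libraries of CIDEA (log2 fold change -1.32, adjusted p = 0.172) and PNPLA2 (-1.05, adjusted p = 0.231) did not overlap between depots over the 4 pairs. That is 2 of the 19, against 1.96% of all genes. The sign of the list median differed between sheep, and the positive end was the sheep with the low-quality subcutaneous library. ADIPOQ, adiponectin, was at 10690, 9495, 10800 and 5273 CPM in visceral and 4643, 16920, 12980 and 8508 CPM in subcutaneous fat (log2 fold change -0.18, SE 0.37, adjusted p = 0.979). FABP4, the fatty acid carrier of fat cells, was at 2655 to 16710 CPM against 8428 to 29340 CPM (log2 fold change -0.80, adjusted p = 0.781). Both of its lowest values came from the low-quality libraries. PLIN1, the main lipid droplet coat protein, had a log2 fold change of -0.65 (adjusted p = 0.567) and PPARG, the regulator of fat-cell formation, one of -0.24 (adjusted p = 0.946).

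LEP, the hormone leptin, varied more between sheep than between depots. It was at 650, 1638, 180.0 and 51.3 CPM in visceral and 138, 834, 111 and 72.1 CPM in subcutaneous fat of sheep 48, 185, 233 and 255. Sheep 185 was highest in both depots and sheep 255 lowest in both, and the depot difference did not pass (log2 fold change 0.85, SE 0.40, adjusted p = 0.667). None of 25 lipogenesis genes, 20 fatty acid oxidation genes, 23 oxidative phosphorylation genes or 9 brown and beige fat genes passed over the 4 pairs. Without the low-quality libraries 2 of the 9 brown and beige genes, CITED1 and CIDEA, were lower in visceral fat in the 2-pair fit. Of all genes 1.23% were. As 3 against 3 CITED1 alone passed (adjusted p = 0.0256), against 0.187% of all genes lower. CITED1 had a log2 fold change of -2.30 over the 4 pairs (adjusted p = 0.107), with groups that did not overlap. UCP1, the heat-producing protein of brown fat, had 3 reads in the visceral and none in the subcutaneous group, too few to test.

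Receptors for estradiol and progesterone, which the animals received as implants, showed no depot difference past the threshold over the 4 pairs. ESR1, estrogen receptor alpha, was at 75.8, 103, 80.9 and 37.4 CPM in visceral and 51.2, 24.2, 43.9 and 42.2 CPM in subcutaneous fat (log2 fold change 0.83, SE 0.36, adjusted p = 0.606). The exception to higher visceral ESR1 was sheep 255. Without the low-quality libraries its adjusted p was 0.0156 in the 2-pair fit, 0.107 as 3 against 3 and 0.0589 in the fit over 30 libraries. PGR, the progesterone receptor, was at 14.7 to 24.1 CPM against 16.3 to 18.96 CPM (log2 fold change 0.03, SE 0.29). NR3C1, the glucocorticoid receptor, was at 229 to 295 CPM in visceral and 335 to 384 CPM in subcutaneous fat. Its groups did not overlap, but the difference was small (log2 fold change -0.40, SE 0.25, adjusted p = 0.803). HSD11B1, which makes active glucocorticoid within fat, and INSR, the insulin receptor, had log2 fold changes of -0.53 and -0.01 with adjusted p of 0.891 and 0.999. None of 18 steroid receptor and target genes and none of 11 steroid-converting enzymes passed over the 4 pairs.

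Markers of macrophages and of T and NK cells did not pass over the 4 pairs. Of 16 macrophage genes 12 had a log2 fold change above 0, against 49.9% of all genes, with a median of 0.52. The median was below 0 in sheep 255 alone (-0.22). In the 2-pair fit 3 of the 16 were higher in visceral fat, C1QC, TYROBP and CD68, against 1.36% of all genes, and as 3 against 3 without the same libraries none passed. T and NK cell genes, of which 6 were tested, had a median of 0.40 and none passed. CD3G, a chain of the T cell receptor complex, was at 2.61, 5.69, 19.8 and 3.04 CPM in visceral and 0, 4.42, 13.3 and 5.79 CPM in subcutaneous fat. Sheep 233, whose libraries held the highest lymph node stroma markers, had the most CD3G in both depots.

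**Figure D3:**
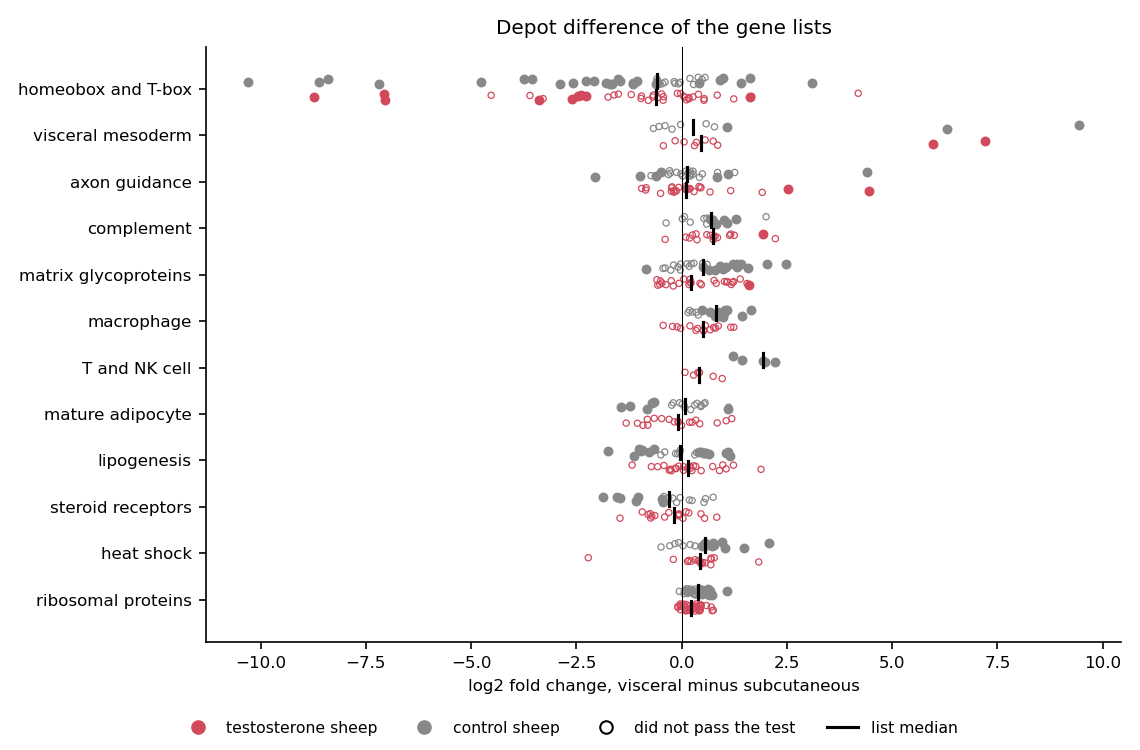
Log2 fold change (visceral minus subcutaneous) of the tested members of 12 gene lists in testosterone (red) and control (grey) sheep; filled points passed the test within their own group, open points did not, and black bars are list medians. Homeobox and T-box genes spread furthest in both groups, and T and NK cell genes have a median of 0.40 in testosterone and 1.93 in control sheep.

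The control sheep, which are other animals, give the depot difference without prenatal testosterone. In them 2315 of 12599 genes passed (18.4%), 1273 higher (10.1%) and 1042 lower (8.27%) in visceral fat. Of the 44 genes called in testosterone sheep 41 were tested in controls, all 41 with the same direction, and 35 passed there. That is 79.5% of the testosterone calls and 1.51% of the control calls. Of the 2249 genes called in controls and tested in testosterone sheep, 2032 (90.4%) had the same direction, against 69.9% of all genes tested in both. The median log2 fold change of those called higher in visceral fat was 0.77 in control and 0.44 in testosterone sheep. For those called lower it was -0.76 and -0.48. The control medians are of genes chosen on the control values, so the gap is a description, and the larger spread of the testosterone pairs (0.337 against 0.174) stands beside it.

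Among the leading genes, IRX2, WT1, SLIT2 and GPR1 had like values in both groups of sheep. The log2 fold change in controls was -7.19 for IRX2, 6.30 for WT1, 4.41 for SLIT2 and 3.48 for GPR1, beside -7.04, 5.97, 4.45 and 3.50 in testosterone sheep. TCF21, with no subcutaneous read in controls, was at 9.45 there and 7.19 in testosterone sheep (interaction -2.05, SE 2.28). Over the 44 called genes the interaction ran from -2.05 to 3.13. SEMA3A (0.85), HMCN1 (2.23), CFB (0.76) and ST6GAL2 (0.91) did not pass in controls, where their adjusted p were 0.0876, 0.0880, 0.0727 and 0.534. The interaction did not pass for any of them, which does not show that they were alike in both treatments.

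The test of the difference itself, the depot difference in testosterone minus that in control sheep over 16 libraries, gave 0 genes of 13311 (0%) with edgeR, where the lowest adjusted p was 0.999. At an unadjusted p under 0.05 there were 476 genes (3.58%), among them 8 of the 44, which were chosen on the testosterone values that enter this difference. Without the low-quality libraries the counts were 0 and 1023 (7.55%). DESeq2 called 4 genes (0.0301%), all with a lower value in testosterone sheep, IGFBP7, CXCL10, ATP5MD and NDUFB6. IGFBP7, an insulin-like growth factor binding protein of blood vessels, was at 58.3, 38.9, 92.0 and 23.5 CPM in visceral and 33.7, 68.6, 82.1 and 42.2 CPM in subcutaneous fat of testosterone sheep. In controls it was at 69.2 to 97.7 CPM in visceral and 27.6 to 43.0 CPM in subcutaneous fat, so the depots overlapped in testosterone sheep and did not in controls. CXCL10, an interferon-induced chemokine, was at 0.990 to 16.6 CPM against 3.64 to 13.2 CPM in testosterone sheep and at 4.59 to 15.8 CPM against 0.9 to 2.91 CPM in controls.

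Of the T and NK cell genes, 6 of 7 tested in controls were higher in visceral fat there, against 10.1% of all genes, with a median of 1.93. The median interaction of the list was -1.21, and the lowest unadjusted interaction p that it held was that of CD3G (log2 difference -1.98 and unadjusted p = 0.00476 in the edgeR fit over all genes, which is not an exact test), whose adjusted p was 0.999. The positional genes had a median interaction of 0.16 and the complement genes one of 0.13.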

How the data were processed

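Polyadenylated RNA of 32 fat samples had been read by 3′ tag sequencing, and the 8 visceral and subcutaneous libraries of testosterone sheep were compared here. The table deposited by the authors holds raw read counts for 28524 genes, not normalized. Trimmomatic 0.36, STAR and featureCounts 1.6.1 are among the tools named, with no order, per the submitters' processing notes, as are FastQC 0.11.5, MultiQC 0.9 and DESeq2 1.24.0 in R 3.6.3. Build, annotation and strand setting: not given in the sources used here. Per the labels' protocols RNA integrity was at least 7. Of the gene rows, 0 named no gene.

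Counts were fitted with edgeR 4.0.16 in R 4.3.3 (TMM, filterByExpr with a minimum count of 10, robust quasi-likelihood test, Benjamini-Hochberg adjustment over all genes tested, threshold 0.05). Unless another tool is named, every adjusted p comes from that test. SE are the size of a log2 fold change over the root of its F statistic. The sheep was a block in the depot test, since both depots came from the same animal. Deviations from the group mean correlated between the depots of a sheep at 0.0234, 0.345, 0.511 and 0.0748 in sheep 48, 185, 233 and 255. Sheep 185 and 233 matched themselves best. The best match of sheep 48 was sheep 185 (0.119), and that of sheep 255 was sheep 48 (0.348). In control sheep the same-sheep values ran from 0.304 to 0.427. The interaction used the 16 visceral and subcutaneous libraries. Alternatives were DESeq2 size factors, no filter, DESeq2 1.42.0, limma 3.58.1 with sample weights, no block, leaving out each sheep, leaving out both low-quality libraries, and fits over 32 and 30 libraries. The fits were tested on simulated data with a smaller spread than that of the testosterone pairs, which checks the code and not the calls. CPM used TMM factors over all 32 libraries. Of 24 replicate pairs 0 were identical, with chi-square over its degrees of freedom of at least 11.9. Intervals are exact binomial and cover counting error only, since reads carry no molecular identifiers.

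The libraries, the 52 gene lists and the tests were chosen with earlier results of these data known, including which libraries were of low quality. Lists are described by counts and medians, with no set test. Named genes were those with a symbol, past the threshold and with groups that do not overlap: the 12 largest changes per direction with a mean of at least 10 CPM in the higher depot, the 6 most abundant per direction with a log2 change of at least 1, up to 4 called per list and direction, up to 6 interaction genes per direction, and fixed genes of fat cells, hormones, position and RNA quality. Other genes in the text were chosen after their values were seen. Gene types came from RefSeq (table for ARS-UI_Ramb_v3.0). No coordinate was used. Some genes that counts include are not reported here.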

Additional observations from a re-analysis of the deposited data

Results flagged for a closer look

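Values in groups of 4 were compared with Dixon's criterion (0.829), under which chance sets about 1 in 20 groups apart. Of 94 groups of values checked, 12 held a library far from the others, 7 of them in the subcutaneous library of sheep 48 and 3 in the visceral library of sheep 255.

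In the subcutaneous library of sheep 48, HOXC9 was at 179 CPM against 57.2 to 72.2 in the other 3, HOXA9 at 116 CPM against 20.9 to 35.6, and TCF21 at 2.70 CPM against 0. ARGLU1 was at 26340 CPM against 1455 to 2340 there, and LUC7L3, a splicing-associated transcript like it, at 10510 CPM against 1036 to 1853. The same library had 6.95% of its reads in the nuclear and intron-rich list against 1.06% to 1.62%, and 13958 genes with a read against 16534 to 17021. In the visceral library of sheep 255, ARGLU1 was at 19700 CPM against 596 to 1788, LUC7L3 at 10170 CPM against 669 to 1669, and the nuclear and intron-rich list at 6.15% against 0.802% to 1.44%.

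Outside these libraries, LEP stood apart in the subcutaneous library of sheep 185 (834 CPM against 72.1 to 138). ST6GAL2 did so in the visceral library of sheep 233 (25.9 CPM against 5.94 to 8.42).

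A depot difference that differed between testosterone and control sheep was called by DESeq2 for 4 genes. The log2 difference, testosterone minus control, was -1.49 for ATP5MD (SE 0.28, adjusted p = 0.000763), a subunit of ATP synthase. It was -2.96 for CXCL10 (SE 0.63, adjusted p = 0.0172), -1.22 for NDUFB6 (SE 0.27, adjusted p = 0.0183), a subunit of respiratory complex I, and -1.47 for IGFBP7 (SE 0.33, adjusted p = 0.0236). With edgeR the values were -1.49, -2.91, -1.21 and -1.46 with unadjusted p of 0.000162, 0.00026, 0.00118 and 0.000948, and each adjusted p was 0.999. Without the low-quality libraries the edgeR values were -1.50, -2.82, -1.13 and -1.55, with adjusted p of 0.163, 0.298, 0.231 and 0.163.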

How the results depend on the processing

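The count of 44 genes (22 higher and 22 lower in visceral fat) changed between fits. It was 46 (24 and 22) with DESeq2 size factors and 49 (25 and 24) as 3 against 3 without the low-quality libraries. It was 279 (167 and 112) without the filter on low counts, 365 (217 and 148) with DESeq2, 184 (99 and 85) with limma and sample weights, and 21 (8 and 13) without the replicate block. With the block it was 332 (174 and 158) without the low-quality libraries, 317 (199 and 118) over all 32 libraries and 312 (195 and 117) over 30. Leaving out 1 sheep gave 5 to 158 genes, 1 to 74 higher and 4 to 84 lower, with 5 without sheep 233, 25 without 185, 77 without 48 and 158 without 255. The cause was not tested. The interaction gave 1 gene without the filter and 4 with DESeq2, and 0 in the other fits, limma and each left-out sheep included.

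Of the 27 called genes that the naming rule gave, none changed direction in any of these fits. All 27 kept their call with DESeq2 size factors, without the filter, with DESeq2, with limma, without sheep 255 and without the low-quality libraries under the replicate block. Without the block 11 lost it, and 11 did as 3 against 3; 22 lost it without sheep 233, 14 without 185, 1 without 48, 2 over 32 and 4 over 30 libraries.

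Genes that did not pass changed sign around 0. When 1 sheep was left out, ARGLU1 ran from -2.14 to 0.023 and LUC7L3 from -1.40 to 0.34, both above 0 without sheep 48. ADIPOQ ran from -0.60 to 0.053, above 0 without sheep 185 or 255, PGR from -0.14 (without sheep 233) to 0.17, and INSR from -0.080 to 0.042, above 0 without sheep 48 or 185. INSR was also above 0 without the filter (0.0036), as 3 against 3 without the low-quality libraries (0.050), over 32 libraries (0.0050) and over 30 (0.079). Of 676 list medians under these fits, 648 lay within 1 SD of the pair medians. Depth limits genes such as CXCL14 and the visceral level of IRX1, which rest on few reads.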

Other observations

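Genes that passed in the paired fit without the low-quality libraries, which rests on 2 complete pairs, and not over the 4 pairs included IGF1, the insulin-like growth factor. It was at 342, 418, 762 and 2414 CPM in visceral and 286, 96.6, 104 and 189 CPM in subcutaneous fat of sheep 48, 185, 233 and 255, and its highest value was in the low-quality visceral library of sheep 255. The log2 fold change of IGF1 was 2.27 over the 4 pairs (adjusted p = 0.189) and 2.48 in that paired fit (adjusted p = 1.78e-05). As 3 against 3 without these libraries it was 1.95 and did not pass (adjusted p = 0.0657). LUM, the collagen-binding proteoglycan lumican, was at 219, 417, 1581 and 295 CPM against 72.8, 56.4, 279 and 197 CPM, with sheep 233 high in both depots. Its log2 fold change was 1.89 over the 4 pairs (adjusted p = 0.0864) and 2.67 in the fit of 2 pairs (adjusted p = 7.39e-06). As 3 against 3 it was 2.04, did not pass (adjusted p = 0.524) and the groups overlapped. Both genes were chosen after their values were seen.

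The list of 17 heat shock genes had 15 members above 0, against 49.9% of all genes, and a median of 0.44, and none passed over the 4 pairs. Its median was 0.77, 0.88 and 0.44 in sheep 48, 185 and 233 and -0.12 in sheep 255. Without the low-quality libraries 4 were higher in visceral fat and 1, HSPA1A, was lower in the fit of 2 pairs. Of all genes 1.36% were higher and 1.23% lower there. None of the 17 passed as 3 against 3. Of 43 ribosomal protein genes 37 were above 0, against 49.9% of all genes, with a median of 0.22, and none passed. The ribosomal share of reads was 4.23% to 4.84% in visceral and 3.09% to 5.06% in subcutaneous libraries.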
